A study of Dunaliella salina with 12 samples.

Results

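The transcripts described here are 59 genes of a set range of abundance that, in the single-celled salt-lake alga Dunaliella salina, kept an even level across 4 media. They were chosen by their FPKM values (fragments per kilobase of transcript, scaled by the mapped total) among 82333 assembled genes, on 2 criteria. The mean of the control libraries had to lie from 100 to below 1000 FPKM, which 991 genes met. The highest of the 12 library values also had to be at most 1.3 times the lowest, which left 59 genes, 5.95% of the 991. All values of all libraries went into this choice, so the small spread of the members is what they were picked for and is no result. Their levels, the part of their spread that lies between groups, and their evenness under other scalings of the libraries are given below as descriptions.

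All groups were cells of strain 435, labelled as 5 days old and sampled as whole organisms, grown at 25 °C with 16 h light and 8 h dark per day at 8000 lx. After a spin, cells spent 2 h in new medium that contained 1.5 M NaCl, which the control group received with no addition. The NaCl group received a further 1.5 M NaCl in that medium, the sorbitol group 1.5 M sorbitol, and the H2O2 group 0.4 mM H2O2. Each group had 3 libraries, 12 in all. Whether those 3 stem from separate cultures is not stated in the labels, and the spread between them may be technical.

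A reference transcript is one whose level serves as the yardstick for others, as when a target is measured by quantitative PCR and divided by the reference to remove differences in RNA input. Genes of basic cell upkeep, such as those of the cytoskeleton, the ribosome and protein turnover, are commonly used, but no gene is even under every condition. Dunaliella lacks a rigid wall, so its cells shrink when the medium becomes hypertonic and recover volume by making glycerol, with many transcripts changing meanwhile. The candidates below carry only the IDs of an assembly. None of the IDs (0) matched the 16683 genes of the reference table used here, and the files do not pair them with names, so no function or sequence is given for any of them. In an ID such as c27084_g1, the first part is the assembly component, a cluster of related assembled sequences, and the second the gene within it. Levels are relative to all other transcripts of a library, so a change in RNA per cell and a change in the number of cells cannot be told apart from these values.

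Evenness at this level was uncommon. Over the 991 genes of the level range the highest-to-lowest ratio had a median of 1.79 and reached 126. It was at most 1.5 in 222 genes and over 2 in 363. The members made up 5.67% of the genes with a control mean of 100 to below 200 FPKM (33 of 582), 5.75% of those from 200 to below 400 (15 of 261) and 7.43% of those from 400 to below 1000 (11 of 148). Outside the range, the same limit was met by 227 of 9082 genes with a control mean of 10 to below 100 FPKM (2.5%). It was met by 68 of 160 genes at 1000 FPKM or more (42.5%). Even transcripts were therefore a larger share of the most abundant genes than of the range from which the members came, though at equal length a more abundant transcript also gives more fragments, and the part of depth in this was not tested.

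**Figure D1:**
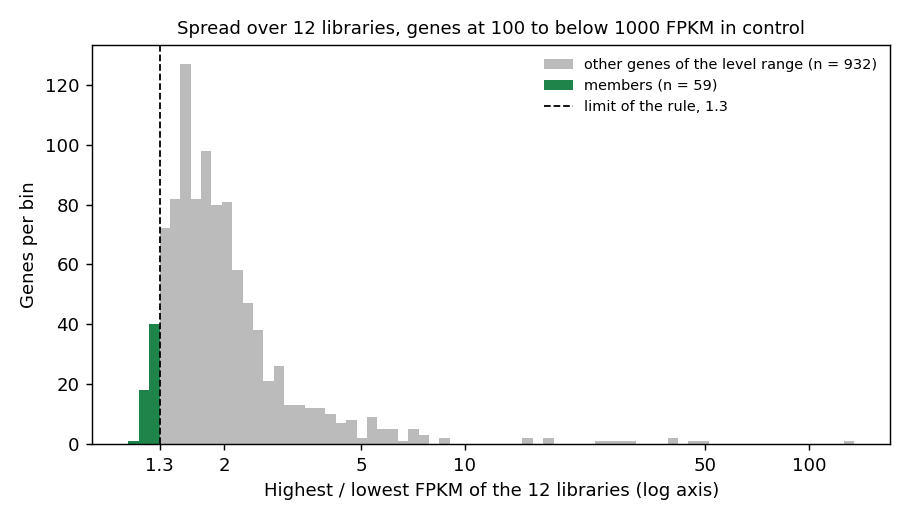
Number of genes (vertical axis) by the highest-to-lowest FPKM ratio over 12 libraries (horizontal log axis) for the 991 genes with a control mean of 100 to below 1000 FPKM. The 59 members (green) form the left edge of a distribution with a median of 1.79, and the dashed line is the limit of 1.3, which falls on its rising slope rather than in a gap.

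The limit did not separate 2 kinds of gene. Just inside it lay c30951_g1 and c23459_g2 (both with a ratio of 1.299) and c29718_g2 (1.297), and just outside c16355_g1 (1.301), c30003_g1 (1.306) and c30879_g6 (1.307). The gene c16355_g1 ran from 106 FPKM in control replicate 1 to 138 in H2O2 replicate 2. Its ratio fell to 1.23 when libraries were scaled by their median ratio and to 1.24 under upper-quartile scaling, so its place outside the list depends on the scaling.

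Levels of the members ran from a control mean of 102 to 946 FPKM, with a median of 184. The medians of the member means were 195 FPKM with NaCl, 202 with sorbitol and 195 with H2O2. The coefficient of variation over 12 libraries was 3.25% to 9.21%, with a median of 6.60%. Together the members held between 1.39% and 1.55% of the summed FPKM of a library.

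The member with the lowest ratio, 1.108, was c27084_g1. It stood at 310.2, 309.7 and 311 FPKM in the control libraries, 320.1, 319 and 328 with NaCl, 329.9, 334 and 332 with sorbitol, and 322, 343 and 329.5 with H2O2. Every treated library of this gene was above every control library, yet the group means of 310.3 ± 0.73, 322 ± 4.72, 332 ± 2.23 and 331 ± 10.8 (SD, n = 3 each) spanned only 1.07-fold. This step between control and treated cells depended on the scale. With equal sums and under quantile normalization, 2 of the other scalings described below, all 9 treated libraries were also above control, whereas 4 of 9 were under upper-quartile scaling and 2 of 9 under median-ratio scaling. Limma, the model described below, called no difference among the groups for this gene (adjusted p = 0.35).

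The second lowest ratio, 1.138, belonged to c27450_g1, which was also among the 3 most abundant members. Its values were 753, 792 and 779 FPKM in control, 761, 759 and 820.3 with NaCl, 816, 857 and 818 with sorbitol, and 764, 793 and 802 with H2O2. The sorbitol libraries were above the control libraries, while NaCl and H2O2 libraries overlapped them. The gene is the only one of its component in the table.

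Lower in level was c27346_g1, with a ratio of 1.163. It stood at 167, 157 and 172 FPKM in control, 174, 176 and 183 with NaCl, 177, 179.7 and 162 with sorbitol, and 174, 172 and 175 with H2O2. NaCl and H2O2 libraries lay above the control libraries and sorbitol libraries overlapped them.

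For 2 of the next 3 members the groups overlapped throughout. The gene c28099_g2 was at 437, 404 and 374 FPKM in control, so that its control libraries held both its highest and its lowest value, and at 380.2, 379.6 and 397 with NaCl, 388, 387 and 408 with sorbitol and 417, 398 and 379 with H2O2. The gene c25274_g1 was at 164, 155 and 155 FPKM in control, 155, 148 and 161 with NaCl, 156, 155 and 169 with sorbitol, and 162, 173 and 153 with H2O2. Their group means spanned 1.05-fold each.

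The third of these, c24239_g3, behaved otherwise. It stood at 294, 278 and 293 FPKM in control and at 252, 259 and 256 with NaCl, without overlap. The group means of sorbitol (277, 282 and 258) and H2O2 (263, 265 and 282) lay between. Sorbitol libraries overlapped both control and NaCl, and H2O2 libraries overlapped control. The mean of c24239_g3 was 289 ± 8.94 FPKM in control and 256 ± 3.50 with NaCl (SD, n = 3). The ratio over 12 libraries, 1.168, was the same as that of c28099_g2 to 3 decimals, although in the one the control and NaCl libraries did not overlap and in the other every treated group overlapped control.

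**Figure D2:**
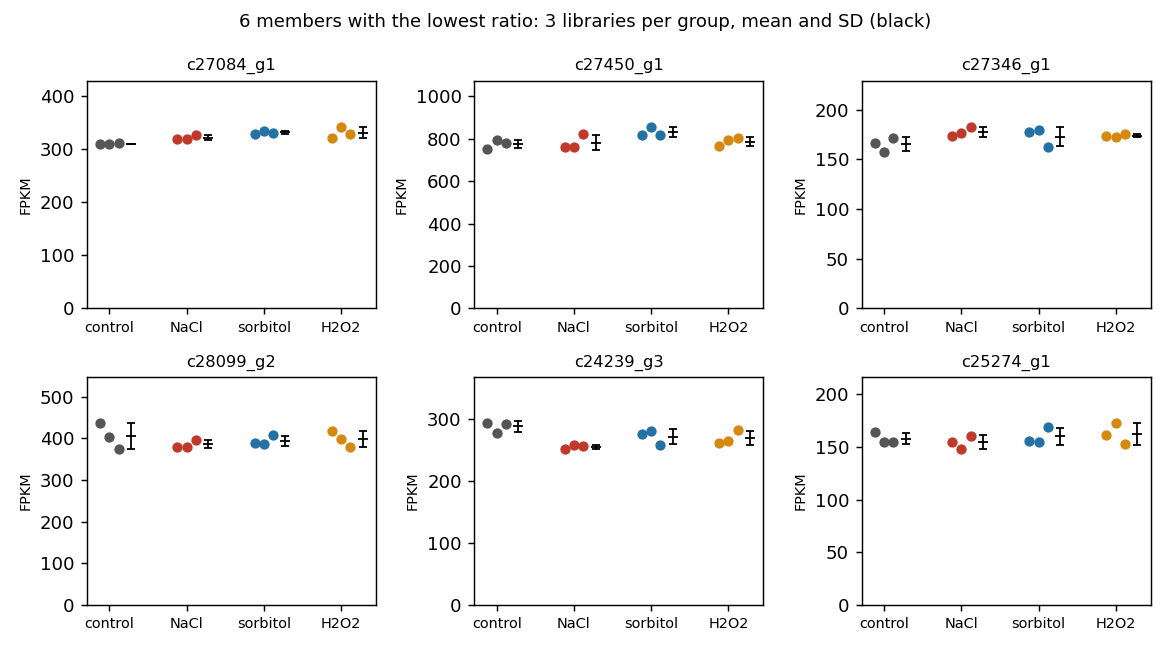
FPKM (vertical axes, from 0) of the 6 members with the lowest ratio in control, NaCl, sorbitol and H2O2 libraries (coloured points, 3 per group) with the mean and SD of each group in black. All 6 are nearly flat, but c27084_g1 is lowest in control and c24239_g3 lowest with NaCl, while c28099_g2 varies most within control.

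At the ends of the level range the picture was similar. The most abundant member, c23048_g1, was at 935, 919 and 984 FPKM in control and at 919.6, 943 and 974 with H2O2. With NaCl it stood at 1123, 982 and 1042 and with sorbitol at 1039, 1127 and 1058 FPKM. Its sorbitol libraries did not overlap the control libraries.

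A further abundant member, c31035_g1, was at 802, 732 and 713 FPKM in control, 770.1, 748 and 669 with NaCl, 735, 708 and 728 with sorbitol and 693, 640.4 and 625 with H2O2. Only its H2O2 libraries lay wholly outside the control range, below it. Its ratio was 1.285.

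At the lower end, c14217_g1 was at 103, 106 and 104 FPKM in control, 103, 101 and 105 with NaCl, 97.2, 91.7 and 101 with sorbitol and 105, 112 and 96.1 with H2O2. Its sorbitol libraries were below its control libraries and the other groups overlapped them. The gene c24907_g1 stood at 106, 101 and 105 FPKM in control, 105, 105 and 113 with NaCl, 109, 115 and 103 with sorbitol and 115, 124 and 126 with H2O2. Here the H2O2 libraries alone were set apart, above control. The gene c29718_g2, with the lowest control mean (102 ± 10.1 FPKM, SD, n = 3), ran within control from 93.6 to 113 FPKM and reached 121 in H2O2 replicate 3.

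The spread of each member was divided into a part within groups and a part between them, on the log2 scale of FPKM. The SD within groups, pooled over the 4 groups, was 0.03 to 0.14 log2 with a median of 0.07. The distance between the highest and the lowest group mean was 0.07 to 0.27 log2 with a median of 0.17, which is 1.05- to 1.203-fold with a median of 1.13-fold. It exceeded 2 SD within groups in 44 of the 59 members. Means of 3 libraries also differ through the spread between libraries alone. No share over all genes was computed for this count, so nothing is read from it. The lowest group mean was that of control in 24 members, NaCl in 19, sorbitol in 10 and H2O2 in 6. The highest was that of H2O2 in 20, sorbitol in 16, NaCl in 13 and control in 10. These counts depended on the scale. Control had the lowest mean in 34 members with equal sums and in 19 under quantile normalization, but in 7 under median-ratio and 6 under upper-quartile scaling, where its mean was the highest in 24 and 26.

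On the deposited scale, 28 of the 59 members had NaCl libraries that did not overlap the control libraries, 26 had such sorbitol libraries and 21 such H2O2 libraries. Over the 27038 tested genes (1 FPKM or more in 3 or more libraries), the shares without overlap were 46.6% for NaCl, 33.9% for sorbitol and 17.0% for H2O2. The rule used these values, so nothing is read from the counts beside the shares. By direction the members were 16 higher and 12 lower with NaCl, beside 24.8% and 21.8% of the tested genes. With sorbitol they were 18 higher and 8 lower (19.6% and 14.3% of the tested genes) and with H2O2 15 higher and 6 lower (12.0% and 5.00%). The 3 sets share the control libraries. No separation from control in any treatment was seen in 10 members, 16.9% of them, beside 40.7% of the tested genes. Separation in all 3 treatments was seen in 6 members, beside 6.81% of the tested genes. Of these, 4 were higher in each (3.52% of the tested genes) and 2 lower in each (1.45%).

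Limma, a linear model fitted here on log2(FPKM + 1) over the 27038 genes and 12 libraries, gave each member's log2 difference from control with its 95% interval. With NaCl the differences ran from -0.20 to 0.24, with 30 positive and 29 negative and a median of 0.001. With sorbitol they ran from -0.21 to 0.26 (35 positive, 24 negative, median 0.05) and with H2O2 from -0.20 to 0.26 (43 positive, 16 negative, median 0.04). The sign of these medians depended on the scale. Under median-ratio scaling they were -0.05 with NaCl, -0.04 with sorbitol and -0.07 with H2O2, under upper-quartile scaling -0.11, -0.02 and -0.06, and with equal sums 0.06, 0.12 and 0.07. The median over all tested genes, 0.03, 0.07 and 0.07 as deposited, became -0.04, 0.01 and -0.004 under upper-quartile scaling and 0.07, 0.12 and 0.10 with equal sums. The SE of a member was 0.05 to 0.10 log2. The whole interval stayed within 1.3-fold of control in either direction for 59 of 59 members with NaCl, 57 with sorbitol and 58 with H2O2. These intervals describe genes picked for small differences and make no prediction for new libraries. Over all tested genes the median size of the difference was 0.46 log2 with NaCl, 0.30 with sorbitol and 0.20 with H2O2. Over the members it was 0.09, 0.09 and 0.08 in that order. The tested genes include many of lower level, and the rule bounds the differences of the members, so nothing is read from this contrast.

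At an adjusted p of 0.05 in limma (Benjamini-Hochberg), the number of members called was 10 for any difference among the 4 groups, where 36.2% of all tested genes were called. It was 10 with NaCl (35.8% of all tested genes), 4 with sorbitol (13.2%) and 0 with H2O2 (0.111%). With NaCl 7 were higher and 3 lower, beside 18.4% and 17.4% of the tested genes, and with sorbitol 3 were higher and 1 lower, beside 6.70% and 6.47%. At an unadjusted limma p under 0.05 the H2O2 count of members was 10, beside 3235 of the 27038 tested genes. Nothing is read from these counts, which the rule limits. Without the mean-variance trend they were 0, 0 and 0 for the 4 groups, NaCl and sorbitol. Of all tested genes 33.3%, 34.4% and 10.9% were then called. With a block for replicate numbers the member counts were 3, 5 and 2, beside 32.3%, 33.4% and 10.6%. They also moved with the scaling. For NaCl the members called were 13 higher and 0 lower with equal sums, beside 5507 and 4305 of the 27038 tested genes. Under upper-quartile scaling they were 0 higher and 10 lower, beside 4061 and 5539. For sorbitol they were 12 higher and 0 lower with equal sums, beside 2656 and 1543. Under median-ratio scaling they were 0 higher and 2 lower, beside 1231 and 2152.

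The 2 members with the largest difference from control in each direction are given next. The gene c23459_g2 was at 175, 169 and 179 FPKM in control, 176, 169 and 177 with NaCl, 210.4, 219.98 and 199 with sorbitol and 173, 179 and 185 with H2O2. Its sorbitol libraries lay above all 9 others, by 0.26 log2 against control (95% interval 0.13 to 0.40; limma adjusted p = 0.013), the largest positive difference of any member in any treatment as deposited. The difference was 0.18 log2 under median-ratio scaling (adjusted p = 0.23), 0.19 under upper-quartile scaling (0.15) and 0.34 with equal sums (0.0035). Without the mean-variance trend its adjusted p in limma was 0.085, and it also rose above 0.05 without control replicate 2 (0.058) or sorbitol replicate 2 (0.052). The gene c29233_g1 went from 197, 177 and 178 FPKM in control to 212, 222 and 225 with H2O2, a difference of 0.26 log2 (0.11 to 0.40) that limma did not call (adjusted p = 0.16). Its NaCl libraries stood at 185, 207 and 193 FPKM and its sorbitol libraries at 208, 211 and 198. Under median-ratio scaling the H2O2 difference was 0.15 log2 (adjusted p = 0.56) and under upper-quartile scaling 0.16 (0.50).

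In the other direction, c29817_g1 was at 163, 161 and 157 FPKM in control and 141, 135 and 139 with sorbitol, -0.21 log2 (-0.33 to -0.08; limma adjusted p = 0.034). The difference was -0.14 with equal sums (adjusted p = 0.14) and -0.30 under median-ratio scaling (0.030). Its adjusted p rose above 0.05 with no filter (0.081), with the replicate block (0.069), without the trend (0.15) and without any 1 of the control or sorbitol libraries (0.062 to 0.11). Its NaCl libraries (166, 158 and 171) and H2O2 libraries (159.6, 166 and 169.7) were near control. The gene c27261_g1 was at 158, 159 and 157 FPKM in control, 140.4, 137 and 133 with sorbitol and 143, 138 and 148 with NaCl, both below control, and at 149, 141 and 161 with H2O2. Its sorbitol difference was -0.20 log2 (-0.34 to -0.07; limma adjusted p = 0.055), -0.13 with equal sums (0.21) and -0.29 under median-ratio scaling (0.049). The gene c30951_g1, second nearest the limit after c23459_g2, held the largest SD within groups, 0.14 log2, with 167, 209 and 183 FPKM in the NaCl libraries and 206, 172 and 207 in the sorbitol libraries.

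**Figure D3:**
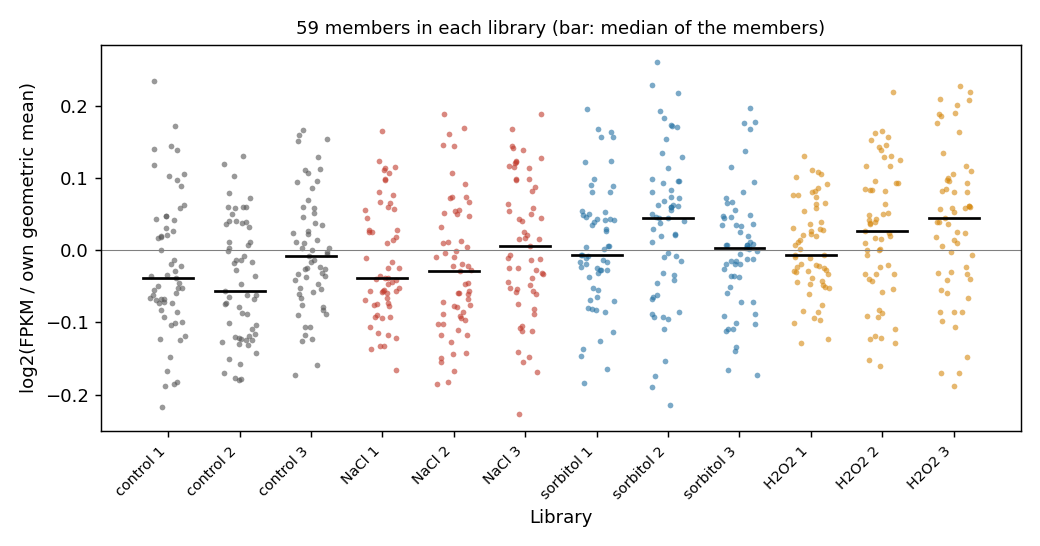
Each member's log2 FPKM relative to its own geometric mean over 12 libraries (vertical axis) in each library (horizontal axis), 59 points per library, with the median of the members as a black bar. The medians are lowest in control replicate 2 and highest in sorbitol replicate 2 and H2O2 replicate 3.

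On the deposited scale the members moved together to a small extent. Their geometric mean was 224, 221 and 227 FPKM in the control libraries, 225, 224 and 229 with NaCl, 228, 233 and 228 with sorbitol and 228, 232 and 234 with H2O2, so the highest library was 1.06 times the lowest. In control replicate 2, 20 of 59 members were above their own mean, and in H2O2 replicate 3, 39 were. The highest value of a member lay in an H2O2 library in 19 cases and in a control library in 11, and the lowest in a control library in 27 and in an H2O2 library in 5. This order of control and H2O2 is that of the deposited scale: under median-ratio scaling the mean of control was the lowest in 7 members and the highest in 24, and that of H2O2 the lowest in 21 and the highest in 6. Relative depth, estimated from the steps that single fragments make among low genes, also differed between these groups, at 0.929 ± 0.021 with H2O2 and 1.05 ± 0.13 in control (SD, n = 3, around a mean of 1 over all libraries). Without control replicate 3 the control mean was 0.976, so that this library carried most of the gap. The part of depth in the members' values was not tested.

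Whether a transcript counts as even depends on how libraries are brought to a common scale. Of 4 other scalings, equal sums sets all library totals equal, median-ratio scaling divides by the median ratio over genes above 0 everywhere, upper-quartile scaling divides by the upper quartile of tested genes, and quantile normalization gives all libraries the same distribution. With equal sums, 45 of the 59 members stayed within a ratio of 1.3. Under quantile normalization 48 did, under upper-quartile scaling 36 and under median-ratio scaling 33. The median ratio of the members, 1.24 as deposited, became 1.25, 1.24, 1.29 and 1.29 in that order, and the highest 1.37, 1.49, 1.44 and 1.42. For the whole level range the median ratio was 1.79 to 1.91 over the 5 scales.

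The library factors behind these scales were small. Median-ratio factors ran from 0.911 for NaCl replicate 1 to 1.07 for H2O2 replicate 2, a 1.18-fold range, and upper-quartile factors from 0.942 for control replicate 3 to 1.07 for H2O2 replicate 2, a 1.13-fold range. Equal-sum factors spanned 1.06-fold, from 0.975 for sorbitol replicate 3 to 1.04 for control replicate 2. Equal sums and median ratios moved the control libraries in opposite directions, since control sums were the highest and control median ratios among the lowest. For control libraries the deposited scale lies between them.

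**Figure D4:**
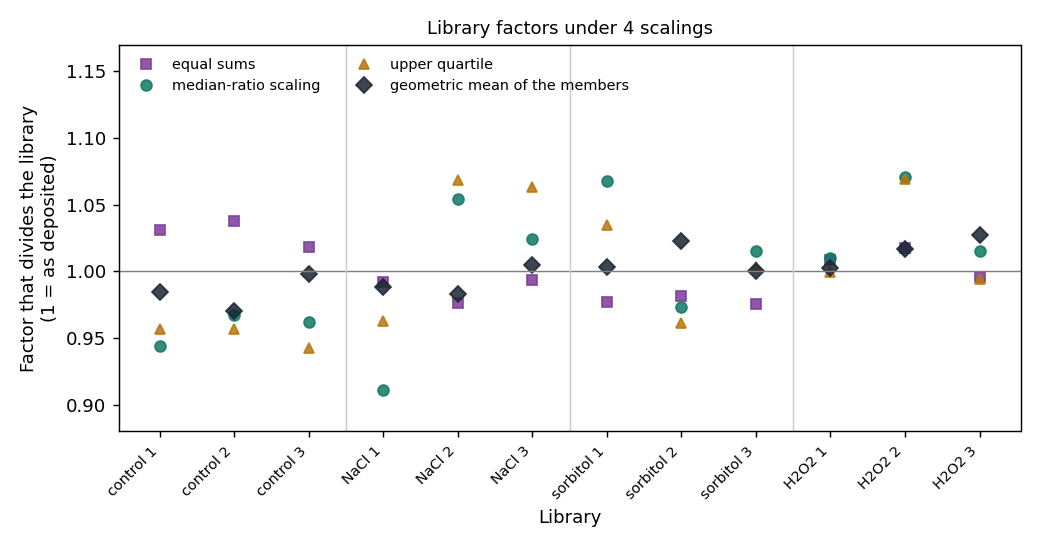
Factor by which each library is divided (vertical axis, 1 is the deposited scale) under 4 scalings for the 12 libraries (horizontal axis, groups parted by grey lines). Median-ratio factors span 0.911 to 1.07, those from the geometric mean of the members 0.97 to 1.03, and the factors of different scalings lie on opposite sides of 1 for the control libraries.

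Applied anew on each scale, the rule chose 52 genes with equal sums, 44 under median-ratio scaling, 53 under upper-quartile scaling and 66 under quantile normalization. The equal-sums list shared 45 genes with the members, 76.3% of the members and 86.5% of the new list. Under median-ratio scaling 33 were shared (55.9% and 75.0%), under upper-quartile scaling 36 (61.0% and 67.9%) and under quantile normalization 48 (81.4% and 72.7%). Scaling by the geometric mean of the members themselves left 56 of them within the limit and chose 71 genes, but that scale was built from the members.

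On all 5 scales 21 genes met the rule. The deposited scale is 1 of the 5, so each of them is a member by construction. Besides c27084_g1, c27450_g1, c27346_g1, c28099_g2, c24239_g3, c25274_g1, c14217_g1, c24907_g1 and c27261_g1, these were c29100_g2, c29517_g2, c19488_g1, c22042_g1, c24248_g1, c26860_g2, c27158_g3, c28777_g1, c29199_g1, c30346_g2, c31006_g1 and c31288_g5. Most of the second set are named because they met the rule on every scale, after their values were seen. Control means of the 21 ran from 104 to 775 FPKM with a median of 200.4. Over the 5 scales the largest ratio of each had a median of 1.27. For 1 member, c27084_g1, it stayed below 1.2, at 1.165. The next lowest were 1.215 for c27346_g1, 1.221 for c29517_g2, 1.238 for c14217_g1, 1.24 for c25274_g1 and 1.252 for c29100_g2.

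Among these, c29517_g2 was at 160.4, 144 and 143 FPKM in control, 152, 157 and 169 with NaCl, 166, 161 and 163 with sorbitol and 153, 156 and 149 with H2O2. Its sorbitol libraries were above the control libraries by a narrow margin. The gene c29100_g2 was at 232, 226 and 241 FPKM in control, 248, 259 and 261 with NaCl, 245, 253 and 251 with sorbitol and 256, 277 and 251 with H2O2, with all treated libraries above all control libraries as deposited. Its ratio, 1.23 as deposited, dropped to 1.12 under upper-quartile scaling, where control factors were low. Of the 3 most abundant members, c27450_g1 met the limit on all 5 scales and the other two left it under some scalings. The ratio of c23048_g1, 1.23 as deposited, became 1.40 under median-ratio scaling and 1.44 under quantile normalization, and that of c31035_g1 became 1.42 under median-ratio scaling.

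The ratio of 2 genes within a library does not change when the whole library is divided by a single factor. Quantile normalization is no such factor and can change it, and the values below are those of the deposited scale. For each member, the SD over 12 libraries of the log2 ratio to each of the 58 other members was averaged, the measure M of the geNorm method, for which a lower value means a more constant proportion to the rest. M ran from 0.10 to 0.16 with a median of 0.13, against a median of 0.29 for the 991 genes of the level range measured against the members. The rule used the same values and the members are the yardstick, so their lower M follows from the choice and is no result. The 6 lowest were c27084_g1 (0.096), c27450_g1 (0.102), c27346_g1 (0.104), c29100_g2 (0.111), c25274_g1 (0.112) and c31142_g2 (0.112). The highest was that of c30951_g1 (0.165). The first 3 by this measure were also the first 3 by ratio, which is taken from the same values. Of the non-members, 57 had an M no higher than that of c30951_g1, and 1, c22421_g1 (0.127, with a ratio of 1.307), had an M below the median member.

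The gene c31142_g2 shows how the measures part. It stood at 287, 264 and 286 FPKM in control, 272, 285 and 292 with NaCl, 288, 319 and 297 with sorbitol and 289, 266 and 304 with H2O2. Its proportion to the other members was among the most constant, but its ratio was 1.32 under median-ratio scaling and 1.33 under upper-quartile scaling, past the limit.

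Among the 1711 pairs of members, the proportion of one to the other varied by a highest-to-lowest ratio of 1.11 to 1.67, with a median of 1.33, and in 631 pairs (36.9%) it was at most 1.3. The most constant pair was c27084_g1 with c27450_g1 (1.11), and close to it were c27084_g1 with c29100_g2 (1.11) and c23824_g1 with c30506_g2 (1.11). The least constant was c23459_g2 with c31283_g2 (1.67). Thus 2 members that each kept within 1.3-fold could differ from each other by more than that. The geometric mean of the 3 members with the lowest M had a ratio of 1.101 over the libraries as deposited.

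Values that the rule did not use come from leaving out a library and applying the rule to the other 11. Without each library in turn, 60 to 74 genes were chosen. With the left-out library put back, between 79.7% and 98.3% of them stayed within 1.3. The lowest share was that of H2O2 replicates 2 and 3, each with 74 genes chosen without it, and the highest that of sorbitol replicate 3. The left-out value lay 0.05 to 0.11 log2 (median size over the chosen genes) from the geometric mean of the other 11, against 0.11 to 0.38 over all genes of the level range. No chosen gene passed a ratio of 2 in these 12 checks, and 6 choices passed 1.5, of which 3 came with H2O2 replicate 2, 2 with H2O2 replicate 3 and 1 with sorbitol replicate 2. The other libraries of the left-out library's group took part in the choice, so this measures the spread between libraries more than the effect of a medium.

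Leaving out a whole medium bears on that effect, but the counts also hold the spread between the libraries of that medium. The control mean was kept, and the idea of leaving out a medium came after seeing the data. Of 80 genes within 1.3 over the 9 libraries without sorbitol, 59 (73.8%) stayed within it with sorbitol. Without H2O2, 118 genes were chosen and 59 (50%) stayed. Without NaCl, 219 genes were chosen and 59 (26.9%) stayed, while 85 passed 1.5 and 10 passed 2. The genes that stayed are the 59 members by construction, so the shares follow from the numbers chosen. With the medium put back, 160 genes passed the limit for NaCl, 59 for H2O2 and 21 for sorbitol. How much of each count is due to the medium rather than to single libraries was not tested.

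Of the 219 genes even in control, sorbitol and H2O2, 151 had a lower mean with NaCl than over the other 9 libraries and 68 a higher one. In 100 of the 219 all 3 NaCl libraries lay below all 9 others, and in 40 above. Over all tested genes the shares were 13.2% and 10.7%. The 219 were chosen for a narrow range over those 9 libraries, which favours a lack of overlap. Nothing is therefore read from these counts beside the shares. Under the other scalings 65 to 99 lay below and 31 to 43 above, with the fewest below under median-ratio scaling. The same 219 genes, not chosen anew on each scale, had a lower mean in 147 to 159 under the other scalings. No share of lower means over all tested genes was computed, so nothing is read from these counts. The median shift was -0.17 log2, and -0.15 to -0.23 under the other scalings. In limma, NaCl against control called 144 of the 219 (65.8%), 44 higher and 100 lower, where 35.8% of all tested genes were called, 18.4% higher and 17.4% lower. The control libraries took part in choosing these genes, so the share called is not set against that background as a test.

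Examples were named after their values were seen, as those that moved most. The gene c30433_g1 was at 576, 618 and 608 FPKM in control, 671, 596 and 660.4 with sorbitol and 539, 558 and 570.3 with H2O2, but at 234, 308 and 270.3 with NaCl, 0.45-fold of the other 9. The gene c23877_g1 was at 507, 474 and 477 FPKM in control, 468, 501 and 509 with sorbitol and 446, 454 and 434 with H2O2, and at 1000.1, 844 and 798 with NaCl, 1.85-fold of the other 9. Each would have passed as even in the 9 libraries without added salt.

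For the other media the shifts were smaller and their direction depended on the scale. The 80 genes chosen without sorbitol were higher in 48 and lower in 32 as deposited, 59 and 21 with equal sums, and 38 and 42 under median-ratio scaling. Limma called 13 of them (16.2%) between sorbitol and control, beside 13.2% of all tested genes. The control libraries took part in choosing these genes too, so nothing is read from the share called. The largest moves were those of c30375_g2, at 597, 614 and 586 FPKM in control and 445, 401 and 419 with sorbitol, and c28149_g1, at 179.9, 175 and 192 FPKM in control and 255, 253 and 255 with sorbitol.

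The 118 genes chosen without H2O2 were higher in 75 and lower in 43 as deposited, and 54 and 64 under median-ratio scaling. Limma called 0 of them between H2O2 and control at an adjusted p of 0.05. An unadjusted limma p under 0.05 was found for 31 of them, beside 3235 of the 27038 tested genes. The control libraries took part in choosing these genes as well, so nothing is read from the 31. Over all tested genes 0.111% were called for H2O2, so a count of 0 is no result about these genes. The gene with the largest move, c23768_g1, was at 111, 109 and 102 FPKM in control, and its H2O2 libraries were uneven, at 124, 135 and 279, so that replicate 3 decides its value. In the NaCl libraries it stood at 111, 97.2 and 117 and in the sorbitol libraries at 112, 97.9 and 117.

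**Figure D5:**
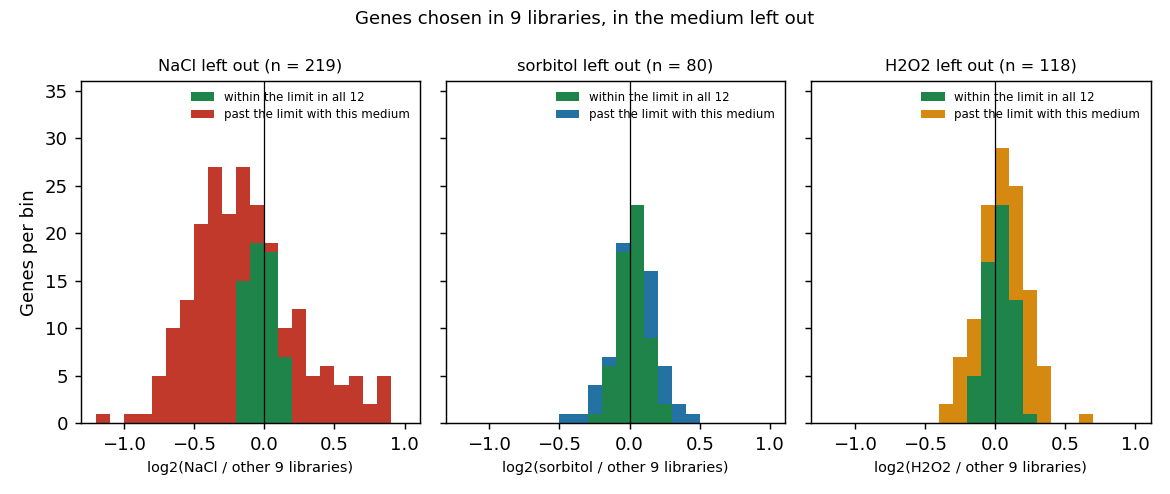
Genes (vertical axis) by the log2 ratio of their geometric mean in a left-out medium to that over the other 9 libraries (horizontal axis), for the 219, 80 and 118 genes chosen without NaCl, sorbitol and H2O2. Green bars are the 59 genes within the limit over all 12 libraries and are the same genes in each panel. With NaCl the genes past the limit spread furthest and lie mostly below 0.

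The assembly groups related sequences, and estimated abundances can be split unevenly among close copies. Of the 59 members, 28 (47.5%) were the only gene of their component, as were 47.7% of the 991 genes of the level range. In 8 members another gene of the component reached at least 10% of the member's level, and their values are less certain for that reason. The gene c31006_g1, at a mean of 285 FPKM, shared a component of 16 genes with c31006_g7 at 2664 FPKM. The members c29980_g1 (609 FPKM) and c29980_g2 (798 FPKM) were the 2 genes of 1 component and are not independent candidates. With sorbitol the first was below all its control libraries and the second above all of its own, at 574, 572 and 563 FPKM against 670.2, 582 and 657 for c29980_g1, and at 788, 792 and 799 FPKM against 709.7, 749.7 and 749 for c29980_g2. The companion of c30359_g10, c30359_g8, stood at 166 FPKM against 154 and had a ratio of 2.00 over the libraries.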

How the data were processed

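The deposited values were read as FPKM. The unit was inferred, as the labels and headers name none, from 2 decimals and library sums of 1065190 to 1133348. Cutadapt and RSEM are named in the submitters' processing notes, with no version. A reference or build is not given in the sources used here. Absolute depth is not held in the authors' FPKM values. Relative depth, from the most frequent step ratio among genes of 0.2 to 1.2 FPKM within a window of 0.05 log2, ran from 0.917 to 1.21. Between 12.1% and 27.6% of those genes lay at that step, so whole reads were not recovered.

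The members, the tests and the alternatives were chosen with earlier results of these data known. Groups and replicate numbers came from the sample titles. Ratios were computed on FPKM with Python 3.11.15, numpy 2.4.6 and pandas 2.3.3. Library factors were set to a geometric mean of 1. Limma 3.58.1 (R 4.3.3, mean-variance trend, no block) was run on log2(FPKM + 1) for the 27038 genes that reached 1 FPKM in 3 or more libraries. All 59 members passed that filter. Benjamini-Hochberg adjustment of p-values ran over all tested genes. The selection and the model were tested on simulated data. Named members are the 6 with the lowest ratio, the 6 with the lowest M, the 6 with the lowest largest ratio over the deposited scale and the 4 planned scalings that do not use the members, the 3 highest and 3 lowest in control, the 3 nearest the limit on either side, and the 2 furthest from control in each direction. Others are said to be chosen after their values were seen or are named for a count. Plots were drawn with matplotlib 3.10.9.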

Additional observations from a re-analysis of the deposited data

How the results depend on the processing

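The limit set the size of the list, with 12 genes at a ratio of at most 1.2 and 222 at 1.5. The rule gave 219 genes without the NaCl group and 118 without the H2O2 group. Leaving out each library gave 60 to 74 genes, a median member ratio of 1.23 to 1.24, and for calls among the 4 groups 8420 to 9965 genes and 4 to 10 members. The ranges of calls without each library were 8210 to 10151 genes and 3 to 12 members for NaCl, 2214 to 4181 and 1 to 7 for sorbitol, and 1 to 72 and 0 to 0 for H2O2. Members within the limit numbered 33 under median-ratio and 36 under upper-quartile scaling.

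Beside counts of members called, the shares of all tested genes called are in brackets. Among the 4 groups, with NaCl and with sorbitol the members were 2, 3 and 2 under median-ratio scaling (35.8%, 36% and 12.5%). With no filter they were 3, 4 and 2 (10%, 10.2% and 3.02%). At an adjusted p of 0.01 in limma they were 2, 1 and 1 (23.7%, 24.7% and 6.09%). Without the mean-variance trend they were 0, 0 and 0 (33.3%, 34.4% and 10.9%). Unadjusted limma p-values under 0.05 then numbered 11773, 11728 and 7057 over all genes. Equal sums gave 16 members among the 4 groups (37.4%) and 12 with sorbitol (15.5%), and upper-quartile scaling 6 (35.6%) and 1 (12.9%). With sorbitol, quantile normalization gave 9 members (14%) and a filter of 5 FPKM 7 (22.3%). Genes called among the 4 groups at 0.01 were 6413, and with sorbitol 1646, or 2337 with no filter. H2O2 calls over all genes, 30 in number, were 12 with a pseudocount of 0.1, 12 with no filter, 11 at 5 FPKM, 102 without the trend and 0 at 0.01 in limma (3235 unadjusted). Leaving out 1 library moved H2O2 counts by over 1.5 times to 72 without NaCl replicate 3, 1 without control replicate 1 or 2, 5 without control replicate 3 or H2O2 replicate 3, 4 and 12 without H2O2 replicates 1 and 2, and 16 and 15 without sorbitol replicates 1 and 2. Sorbitol counts over all genes were 2301 without control replicate 2 and 2353 and 2214 without sorbitol replicates 1 and 3. Members called with NaCl were 4, 6 and 6 without control replicates 1 to 3 (30.4%, 30.7% and 31.4%). They were 5 and 3 without NaCl replicates 2 and 3 (31.3% and 30.9%). With sorbitol they were 2, 1 and 2 without control replicates 1 to 3 (8.82%, 8.51% and 9.7%). They were 2 and 1 without sorbitol replicates 1 and 2 (8.7% and 10.2%), and 7 without H2O2 replicate 2 (15.5%). Among the 4 groups they were 6, 4 and 6 without control replicates 1 to 3 (32.1%, 32.6% and 33.2%). They were 5 without NaCl replicate 1 or 3 (31.5% and 31.1%), sorbitol replicate 2 or 3 (34.1% and 33.3%) or H2O2 replicate 1 (33.6%). Where fewer genes can pass or more are tested, the construction sets the count; otherwise the cause was not tested.

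Replicate numbers did not pair the libraries: correlations of deviations ran from -0.083 to 0.047 in 18 same-number pairs, and for 3 of 12 libraries the best match had the same number. With the replicate number as a block in limma, members called were 3 among the 4 groups, 5 with NaCl and 2 with sorbitol. Of all tested genes 32.3%, 33.4% and 10.6% were called. For H2O2 limma with this block called 0 genes (2878 at an unadjusted p under 0.05).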
